A study of Mus musculus with 4 samples.

Results

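Voltage-gated sodium and calcium channel genes were followed here as a family of 40 among the 22328 genes listed in both deposited tables. A gene was chosen by its symbol alone, as Scn followed by a number and the letter a or b, or as a symbol that begins with Cacna, Cacnb or Cacng. The rule itself uses no measured value. The pore subunits numbered 20, with 10 sodium channel and 10 calcium channel genes. The other 20 were auxiliary subunits, namely 4 sodium channel beta, 4 calcium channel alpha2delta, 4 calcium channel beta and 8 gamma genes, the last including the transmembrane AMPA receptor regulatory proteins (TARPs).

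The 4 mouse libraries each stood for a group of their own. Hippocampus came from F1m-CON offspring, whose dams ate 1.1 g/kg choline chloride, and from F1m-GCS offspring, whose dams ate 5 g/kg. The dams' diets ran from embryonic day 9 to birth, the offspring of both groups then ate a basal diet, and behaviour was tested at an age of 2 months. HT22 cells, an immortalised line from mouse hippocampal neurons, were kept for 48 h in 5 µM choline chloride (CON) or 70 µM (SUP), both in high-glucose DMEM with 10% FBS and 1% penicillin and streptomycin. The sources used here do not say how many animals or dishes went into a library. With 1 library a group, the spread between animals or cultures was not measured and no p-value is given.

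Reads counted in genes came to 31175015 in F1m-CON, 30265820 in F1m-GCS, 18305096 in HT22 CON and 13192007 in HT22 SUP. A gene was taken as measured in a comparison with at least 50 reads in 1 of its 2 libraries, and was called when its 2 libraries differed by 1.5-fold or more and the 95% interval of the log2 ratio excluded 0. Bracketed values are these intervals. They cover counting error only, since each group holds 1 library. They also treat reads as independent, and sequenced reads are not independent molecules, so even that error may be understated. Levels are reads per kilobase of coding length per 1000000 reads in genes, and only they are compared between genes.

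Sodium channel pores open when the membrane depolarises and carry the upstroke of the action potential. Calcium channel pores turn depolarisation into calcium entry, which drives transmitter release, dendritic signalling and transcription. The auxiliary subunits set how many pores reach the membrane and how they gate. Several gamma genes encode TARPs, which are best known as partners of AMPA-type glutamate receptors rather than of calcium channels. In bulk tissue, fewer cells of a type and less RNA per cell cannot be told apart.

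In hippocampus 34 of the 40 genes were measured. The 6 that were not comprise Scn4a, the muscle sodium channel, with 2 reads in each library, Scn10a with 1 in each, Scn11a with 2 in F1m-CON and 0 in F1m-GCS, Cacna1f, the retinal calcium channel, with 4 and 5, Cacna1s, the muscle calcium channel, with 28 and 25, and Cacng1, the muscle gamma subunit, with 0 and 1. These are genes known for muscle, sensory neurons or retina. Pore genes of the brain had far more reads, up to 14423 and 14798 for Scn8a.

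Among the sodium channel beta genes, the level in F1m-CON and F1m-GCS was 635 and 585 for Scn3b and 493 and 497 for Scn2b, above every pore gene in both libraries. Scn4b was far lower, at 43.5 and 39.8. Among the pores Scn8a led with 77.9 and 82.4, ahead of Scn2a1 at 52.7 and 63.5 and the R-type calcium channel gene Cacna1e at 54.4 and 65.6. The last pair differed from each other by less than each differed between the libraries. Cacng7 at 208 and 202 and Cacnb3 at 164 and 165 led the gamma and calcium channel beta genes.

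**Figure D1:**
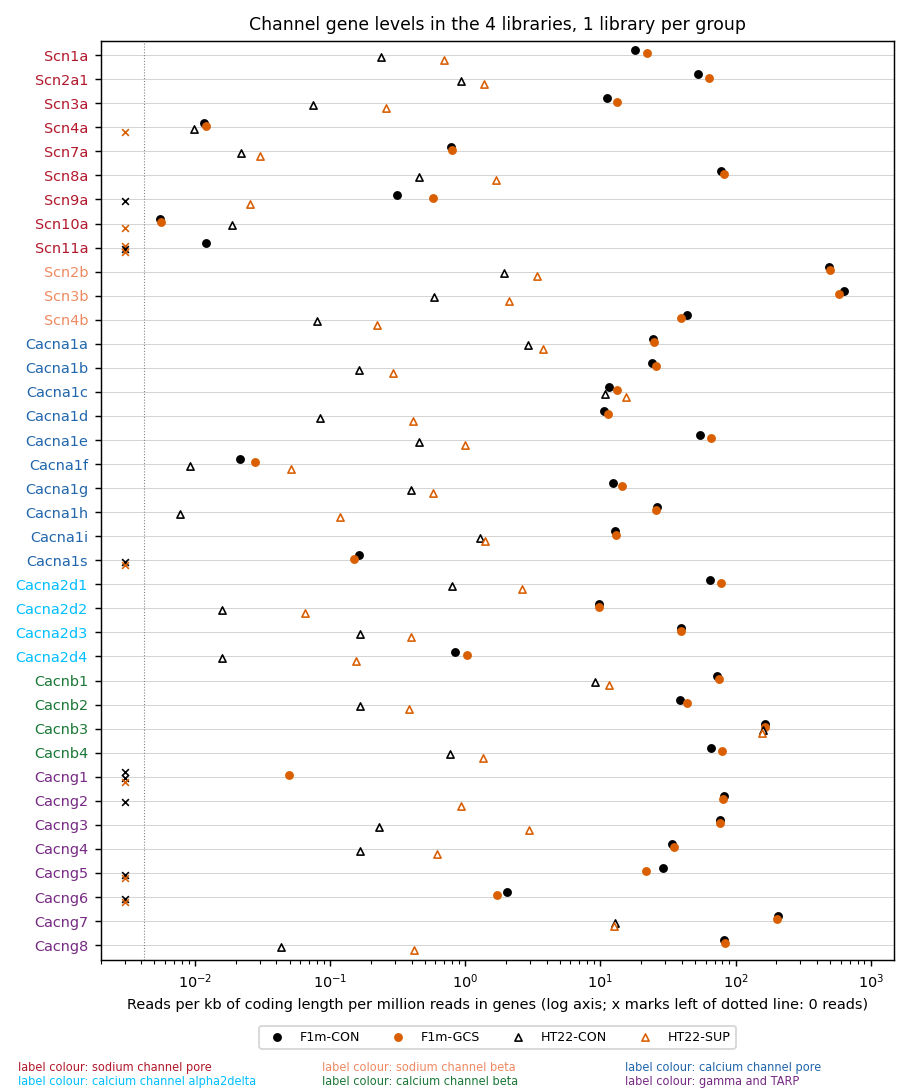
Level of 38 of the 40 genes in the 4 libraries, on a log axis in reads per kilobase of coding length per 1000000 reads in genes; circles are hippocampus, triangles HT22 cells, and crosses at the left edge are libraries with 0 reads. The hippocampus circles of a gene nearly coincide for most genes, while the HT22 triangles lie far to the left for all but a few, among them Cacna1c and Cacnb3.

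The comparison of F1m-GCS with F1m-CON hippocampus addresses how the dams' choline supply relates to expression in the offspring. Ratios above 0 were found for 24 of the 34 measured genes, against 48.8% of all 13392 measured genes. Of the 34, 1 was at least 1.5-fold higher in F1m-GCS and 0 were lower, against 1.80% and 0.904% of all. The median log2 ratio of the 34 was 0.04, beside -0.0042 over all measured genes. The pore genes had a median of 0.12 over 15 genes, with 10 intervals wholly above 0 and 0 below. The auxiliary genes had a median of 0.01 over 19 genes, with 3 intervals above 0 and 2 below. Over all measured genes 20.9% of intervals lay above 0 and 18.8% below.

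Coding length moved with these ratios. When all other measured genes were sorted by coding length into 10 equal groups, the median ran from -0.09 in the shortest group to 0.11 in the longest, and all 15 measured pore genes fell in the longest. Each gene was therefore set beside the 200 measured genes nearest to it in coding length. Those neighbours had medians from 0.09 to 0.15 for the pore genes, and the pore genes differed from them by a median of -0.02, with 7 of 15 above. The auxiliary genes, with neighbour medians from -0.06 to 0.07, differed by 0.05, with 13 of 19 above. The neighbour medians centred on 0.13 for pore genes and -0.04 for auxiliary genes, so genes that are no channels also differed by length.

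**Figure D2:**
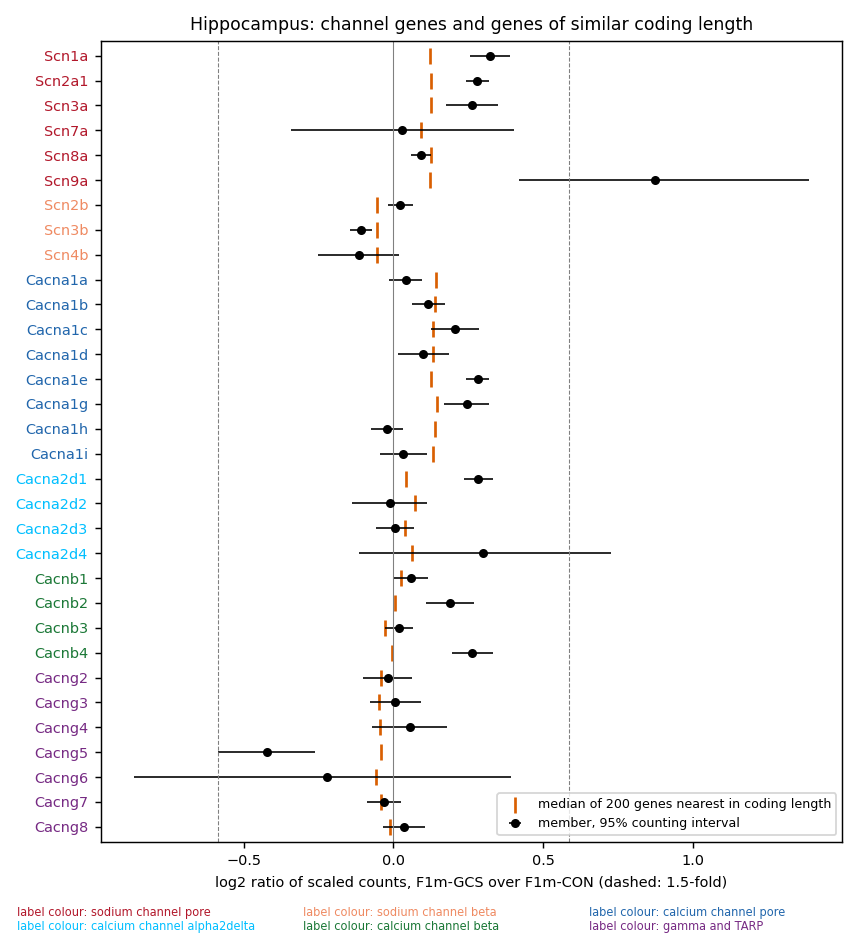
Log2 ratio of F1m-GCS over F1m-CON for 32 of the 34 measured genes (points, with 95% counting intervals) and the median of the 200 genes nearest in coding length (orange ticks); dashed lines mark 1.5-fold. Only Scn9a lies beyond a dashed line, and the ticks of the pore genes sit to the right of those of the beta and gamma genes.

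The brain sodium channel pores resemble one another closely in sequence, which bears on how their reads could be assigned. Over whole coding sequences in mm10 the longest identical run was 188 bases between Scn1a and Scn2a1, 184 between Scn3a and Scn9a and 143 between Scn3a and either Scn1a or Scn2a1. Reads inside such runs cannot be assigned to 1 gene by sequence alone. By their headings the counts are of uniquely mapped reads, so reads that fit more than 1 gene may have been left out. The counts of these genes are uncertain to that extent, most of all for Scn9a with its few reads.

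Scn9a encodes a sodium channel best known from pain-sensing and olfactory neurons. It had 58 reads in F1m-CON and 104 in F1m-GCS, or levels of 0.312 and 0.577. The F1m-GCS library was the higher one, with a log2 ratio of 0.87 (0.42 to 1.39), and the authors' deposited table lists 0.90. The ratio lay above all 200 length neighbours, by 0.75 over their median. It rests on few reads, and with a minimum of 200 reads the gene is no longer measured and the count of higher genes is 0. The gene (ENSMUSG00000075316) lies on chromosome 2 from 66480080 to 66634952 on the minus strand (mm10).

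Scn1a, the pore gene that is prominent in fast-spiking interneurons, had 3362 and 4051 reads in F1m-CON and F1m-GCS and a log2 ratio of 0.32 (0.26 to 0.39). Scn2a1, a main pore of excitatory neurons and their axons, had 9890 and 11566 reads and 0.28 (0.24 to 0.32). Scn3a, the pore gene most active before birth, had 2026 and 2342 reads and 0.26 (0.18 to 0.35). Each of them was higher in F1m-GCS, and they lay above 170, 165 and 160 of their 200 length neighbours. Scn8a, the pore of the axon initial segment and nodes in mature neurons, had 14423 and 14798 reads and 0.09 (0.06 to 0.12). That placed Scn8a, the most abundant pore gene, above 83 of its 200 neighbours.

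The share of Scn8a in the summed level of the 10 sodium channel pore genes was 48.4% in F1m-CON and 45.0% in F1m-GCS. The share of Scn2a1 was 32.7% and 34.7%, and that of Scn1a 11.1% and 12.1%. Summed over the 10 genes, reads were 29962 and 33053, a pooled log2 ratio of 0.20 (0.17 to 0.22). Scn7a, which is linked to sodium sensing in glia, had 124 and 122 reads and a log2 ratio of 0.03 (-0.34 to 0.40). This interval includes 0, so no difference was detectable at this depth.

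Scn3a, Scn2a1, Scn1a, Scn9a and Scn7a sit together on chromosome 2 between 65457118 and 66784914, a stretch of 1.33 Mb. The 3 other measured genes in that stretch had log2 ratios from 0.19 to 0.51, with a median of 0.21. Scn8a, with the smaller ratio, lies on chromosome 15 from 100870683 to 101045929. Base composition also differs between them. The transcript with the longest coding sequence had a GC content of 40.2% in Scn7a, 42.1% in Scn3a, 42.4% in Scn9a, 43.3% in Scn1a, 43.4% in Scn2a1 and 50.8% in Scn8a.

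Ratios moved with GC content among all genes as well. Sorted by GC content into 10 equal groups, other genes had a median log2 ratio of 0.17 in the lowest group, where 8.94% were at least 1.5-fold higher. The median was 0.07 in the next group and between -0.03 and 0.01 in the rest. Across the 34 measured channel genes the rank correlation with GC content was -0.44, across the 15 pore genes -0.56 and across all genes -0.25. These are descriptions of the same pair of libraries, and genes are not independent replicates. When each gene was set beside others of its group by both coding length and GC content, the excess was -0.02 for Scn1a, -0.07 for Scn2a1, -0.08 for Scn3a and 0.02 for Scn8a. It was 0.53 for Scn9a and -0.31 for Scn7a, which had the lowest GC content of the cluster and a log2 ratio near 0. The part of base composition in these ratios was not tested.

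**Figure D3:**
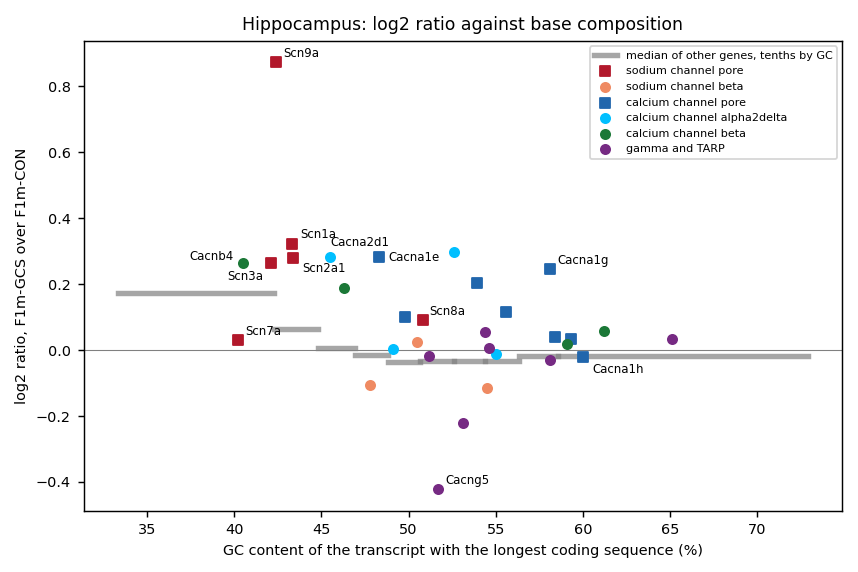
Log2 ratio of F1m-GCS over F1m-CON against the GC content of the transcript, for 32 of the 34 measured genes (squares are pores, circles auxiliary subunits) and for all other measured genes as medians in 10 groups (grey bars). The grey bars are highest at low GC, where Scn1a, Scn2a1, Scn3a and Cacnb4 also lie, and Cacng5 lies lowest of the channel genes.

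The start regions of 3 of these genes also differ in base composition. The 250 bases before a RefSeq transcript start (GRCm38.p6) are shown, with each CG dinucleotide in capitals. The genes are Scn1a and Scn2a1, whose ratios were close, and Scn8a. Where a gene had several RefSeq starts, the one nearest to its listed gene start was taken, so a window describes that start only.
Scn1a, chr2:66440838-66441087, minus strand: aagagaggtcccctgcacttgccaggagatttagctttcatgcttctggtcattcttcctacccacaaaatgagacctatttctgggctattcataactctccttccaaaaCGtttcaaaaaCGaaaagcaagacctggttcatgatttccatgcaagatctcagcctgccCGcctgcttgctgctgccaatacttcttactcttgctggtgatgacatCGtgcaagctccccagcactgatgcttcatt
Scn2a1, chr2:65620519-65620768, plus strand: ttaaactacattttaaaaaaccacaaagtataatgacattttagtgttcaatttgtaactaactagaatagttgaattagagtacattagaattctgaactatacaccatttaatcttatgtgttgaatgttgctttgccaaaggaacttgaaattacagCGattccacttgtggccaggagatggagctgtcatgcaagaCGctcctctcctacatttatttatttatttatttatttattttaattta
Scn8a, chr15:100870395-100870644, plus strand: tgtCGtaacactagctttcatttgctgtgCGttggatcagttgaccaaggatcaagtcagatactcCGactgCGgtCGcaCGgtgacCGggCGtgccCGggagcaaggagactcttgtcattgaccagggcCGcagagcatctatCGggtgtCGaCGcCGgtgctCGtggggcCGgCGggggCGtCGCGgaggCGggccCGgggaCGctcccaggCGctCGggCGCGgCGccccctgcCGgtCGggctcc
The window held 4 CG dinucleotides at 46.8% GC in Scn1a, 2 at 29.6% in Scn2a1 and 30 at 68.0% in Scn8a. RefSeq windows were found for 30 of the 40 genes, 41 windows in all, with a median of 8 CG dinucleotides beside 6 over 32851 windows of the genome. At least 30 were held by 8 of the 41 and by 5.94% of all windows. The left and right parts of the binding motif of REST, a repressor of neuronal genes, were searched as TTCAGCACC and GGACAGC on both strands. The first was in 0 of the 41 windows and in 0.301% of all, the second in 1, at Cacnb1, and in 5.28% of all. A match is a description of letters and not a binding site, and these windows are short.

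The sodium channel beta genes, which encode adhesion-like subunits that adjust gating, had a median log2 ratio of -0.05. Scn3b had 12828 reads in F1m-CON and 11472 in F1m-GCS, a log2 ratio of -0.11 (-0.14 to -0.07). Scn4b, the subunit tied to resurgent current, had 932 and 828 reads and -0.12 (-0.25 to 0.02). Scn2b, with 9959 and 9748 reads, stood at 0.02. The neighbours in coding length had a median of -0.05 as well, and 2 of the 4 beta genes lay above it. Scn2b, Cacna1h, Cacna2d3 and Cacna2d4 each overlap 1 gene on the opposite strand in the tables, and the sources used here do not say whether strand was used in counting.

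Among the calcium channel pores, Cacna1e had 9998 reads in F1m-CON and 11704 in F1m-GCS and a log2 ratio of 0.28 (0.24 to 0.32). Its share of the summed level of the 10 calcium channel pores was 30.8% and 33.8%. Cacna1g, a T-type channel gene that supports burst firing, had 2748 and 3136 reads and 0.24 (0.17 to 0.32). Cacna1c, the main L-type channel gene of brain and heart, had 2401 and 2666 reads and 0.21 (0.13 to 0.29). Each of these was higher in F1m-GCS, and they exceeded their length neighbours by 0.16, 0.10 and 0.07, and their groups by length and GC content by 0.12, 0.19 and 0.15.

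The other measured calcium channel pores lay closer to 0. Cacna1a, the P/Q-type gene, had 5378 and 5329 reads and a log2 ratio of 0.04 (-0.01 to 0.10). Cacna1b, the N-type gene, had 5210 and 5437 reads and 0.12 (0.06 to 0.17). Cacna1d, the other neuronal L-type gene, had 2170 and 2240 reads and 0.10 (0.01 to 0.19), and it overlaps 2 opposite-strand genes. Cacna1h, a T-type gene, had 5814 and 5523 reads and -0.02 (-0.07 to 0.03), above only 18 of its 200 length neighbours. Cacna1i, the remaining T-type gene, had 2658 and 2618 reads and 0.03, above 46. Of the T-type genes, Cacna1g thus lay above the median of its neighbours and the other pair below theirs.

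The alpha2delta genes encode extracellular subunits that raise channel number at synapses, and Cacna2d1 is the target of gabapentin. Cacna2d1 had 6645 reads in F1m-CON and 7792 in F1m-GCS, a log2 ratio of 0.28 (0.24 to 0.33). It exceeded 179 of 200 length neighbours, by 0.24 over their median, and its group by length and GC content by 0.23. Cacna2d3, with 4034 and 3898 reads, stood at 0.0047, and Cacna2d2, with 1066 and 1018, at -0.01. Cacna2d4, with 90 and 107 reads, had 0.30 (-0.11 to 0.72), an interval that includes 0. The share of Cacna2d1 in the group's summed level was 56.2% in F1m-CON and 60.8% in F1m-GCS.

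All 4 calcium channel beta genes, whose cytoplasmic subunits bring the pore to the membrane, had ratios above 0, with a median of 0.12 beside 0.00 for their length neighbours. Cacnb4 had 3224 reads in F1m-CON and 3727 in F1m-GCS and a log2 ratio of 0.26 (0.19 to 0.33), above 176 of 200 neighbours. Cacnb2 had 2363 and 2595 reads and 0.19 (0.11 to 0.27), above 169. Cacnb1, with 4637 and 4649 reads, stood at 0.06, and Cacnb3, with 7461 and 7281, at 0.02. Cacnb4 was also the gene of this group with the lowest GC content, 40.5%, and its excess over genes of like length and GC content was 0.14.

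Of the 7 measured gamma genes 3 had ratios above 0, with a median of -0.02. Cacng5, an atypical TARP, had 756 reads in F1m-CON and 543 in F1m-GCS, or levels of 29.3 and 21.7. The F1m-CON library was the higher one, with a log2 ratio of -0.42 (-0.58 to -0.26), short of 1.5-fold. It lay above only 6 of its 200 length neighbours, 0.38 below their median, and no other measured channel gene had a lower ratio. The forebrain TARP genes Cacng8, Cacng2 and Cacng3, which hold AMPA receptors at synapses, had 3262 and 3219, 2490 and 2367, and 2282 and 2207 reads. Their log2 ratios were 0.04, -0.02 and 0.01. Cacng7, with 5359 and 5051 reads, had -0.03, Cacng4, with 1038 in each, 0.05, and Cacng6, with 50 and 41, -0.22 (-0.86 to 0.39).

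Partner genes of the sodium channels, a list that includes ankyrins, neurofascin and the intracellular FGF homologues, had a median of 0.09 over 17 measured genes, with 0 beyond 1.5-fold. Ank2 and Ank3, the ankyrins that anchor the channels, had log2 ratios of 0.20 and 0.20 and Nrcam, an adhesion molecule of the initial segment, 0.20. Fgf11, one of the FGF homologues, had 0.29. Partner genes of the calcium channels had a median of -0.01 over 15, with 1 lower by 1.5-fold. That gene was Stac3, a muscle adaptor of the channel, with 56 and 24 reads and -1.11 (-1.92 to -0.45), measured only through F1m-CON. Rims2, of the presynaptic release site, had 0.37, and Rem2, a small GTPase that inhibits the channels, -0.17. The 7 measured related pores had a median of 0.03 with 0 called. Among them Unc80 had 0.31 and Nalcn, the sodium leak channel, 0.20.

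Neuron markers had a median of -0.02 over 16 of 16 measured, 0 called, and a sum of 12900 reads per 1000000 reads in genes (CPM) in both libraries. Choroid plexus markers were lower in F1m-GCS, all 10 below 0 with a median of -0.49 and 3 beyond 1.5-fold, and their sum was 1930 and 1640 CPM. None of these 10 markers was at 0 in either library. Their part in the channel gene ratios was not tested.

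HT22 cells held few of the channel transcripts. Over the 34 genes measured in hippocampus, the ratio of the mean HT22 level to the mean hippocampus level had a median of 1.56%, beside 92.9% over all 13392 genes. It was under 1% for 12 of the 34 and under 5% for 27, against 12% and 21.2% of all genes. These levels come from 2 tables that were counted separately. Pores had a median of 2.23% and auxiliary subunits 0.711%.

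The exceptions were few. Cacnb3 had 4262 reads in HT22 CON and 3009 in HT22 SUP, 97.0% and 95.1% of the hippocampus level. Cacna1c had 1315 and 1358 reads, 87.0% and 125%. By the deposited RPKM values, which divide by all uniquely mapped reads, Cacnb3 stood at 89.2% and 75.7%. On that scale Cacna1c stood at 80.0% and 99.3%, so its SUP level was above that of hippocampus on 1 scale only. Cacnb1 stood at 12.3% and 15.4%, Cacna1a at 11.8% and 15.4%, Cacna1i at 9.86% and 10.9% and Cacng7 at 6.29% and 6.13%. Cacna2d4 stood at 1.70% and 16.5%, on 1 and 7 reads. Cacna1c made up 67.0% and 66.9% of the summed level of calcium channel pores in the cells, against 6.54% and 6.80% in hippocampus, and Cacnb3 made up 94.1% and 92.2% of the calcium channel beta genes.

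The 7 sodium channel pores measured in hippocampus stood between 1.33% and 3.26% of its level in HT22 cells. All 10 together had 190 reads in HT22 CON and 321 in HT22 SUP, and Scn2a1 had 102 and 109 of these. Scn11a, Cacna1s, Cacng1, Cacng5 and Cacng6 had 0 reads in both libraries. For Cacng5 a count of 0, with 3 reads taken as the limit, allows up to 0.777% of its hippocampus level in the CON library and 1.08% in the SUP library. For Cacna1s and Cacng6, scarce in hippocampus too, the limits were 19.0% and 26.4%, and 11.1% and 15.4%.

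**Figure D4:**
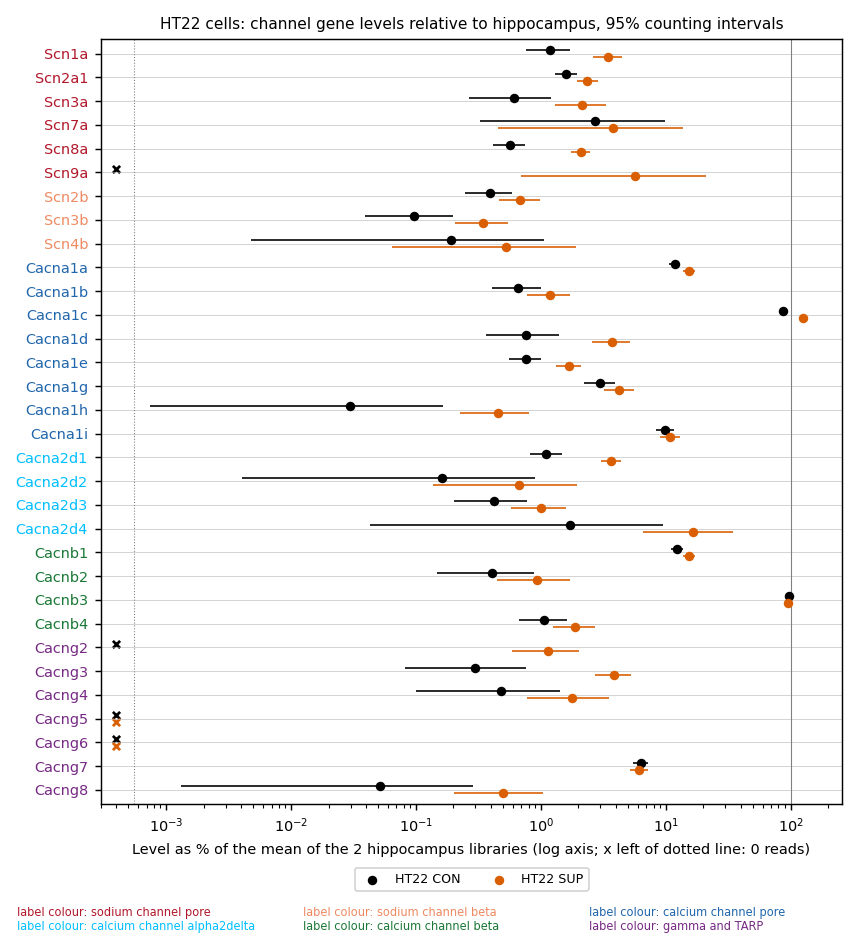
HT22 level of 32 of the 34 genes measured in hippocampus, as a percent of the mean hippocampus level on a log axis, for CON (black) and SUP (orange) with 95% counting intervals; crosses left of the dotted line are 0 reads. Cacna1c and Cacnb3 lie near 100%, and for most of the low genes the SUP point lies to the right of the CON point.

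The comparison of HT22 SUP with CON asks the same question of cells given choline directly. Of the 40 genes 13 were measured, 8 pores and 5 auxiliary subunits. At 1.5-fold 4 were higher in SUP and 0 were lower, against 5.13% and 2.89% of all 10854 measured genes. All 4 reached 50 reads in SUP and not in CON, so they had to differ to be measured, and the count supports nothing by itself. With a mean of 50 reads required instead, a setting added after the data were seen, 12 were measured and 3 higher, without Scn1a. The 27 genes under the minimum had at most 37 reads in a library. The median log2 ratio of the 13 was 0.52, beside -0.05 over all measured genes. Ratios above 0 were found for 11 of the 13, against 41.9% of all genes. Of the 13 intervals 9 lay above 0 and 0 below, against 22.4% and 32.7% of all genes. The median and these counts include the 4 genes that were measured through SUP alone, so they too support nothing by themselves.

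Scn8a had 49 reads in HT22 CON and 132 in SUP, levels of 0.451 and 1.69, and a log2 ratio of 1.86 (1.43 to 2.42). Scn1a had 26 and 55 reads and 1.48 (0.87 to 2.30). Cacna2d1 had 48 and 114 reads and 1.68 (1.23 to 2.25). Cacna1e had 49 and 78 reads and 1.12 (0.62 to 1.70). SUP was the higher library for all 4 although it held fewer reads in all. Their levels in SUP were still 2.10%, 3.45%, 3.67% and 1.67% of those in hippocampus.

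The other 9 measured genes lay under 1.5-fold. Cacna1c had a log2 ratio of 0.53 (0.42 to 0.64), Cacna1a, with 378 and 353 reads, 0.38 (0.17 to 0.60), and Cacnb1, with 339 and 308, 0.34 (0.12 to 0.57). Scn2a1 had 0.57 (0.18 to 0.98), just short of 1.5-fold. Cacnb3 had -0.02 (-0.09 to 0.05) and Cacng7, with 195 and 137 reads, -0.02 (-0.35 to 0.30). Cacna1g, with 52 and 54 reads, had 0.52 (-0.04 to 1.12), and Cacna1i, with 155 and 123, 0.15 (-0.20 to 0.50).

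Coding length moved with the ratios here too. Among other genes, the longest of 10 equal groups by coding length had a median of 0.29, and 22.6% of that group was at least 1.5-fold higher. Against their 200 length neighbours the 13 genes differed by a median of 0.18, with 11 above. Scn8a lay above all 200 of its neighbours, Cacna2d1 above 199, Scn1a above 198 and Cacna1e above 195, while Cacna1a lay above 75 and Cacna1i above 35. Scn8a, Cacna2d1, Scn1a and Cacna1e passed the read minimum only through SUP, so their high ranks support nothing by themselves. The median difference and the count of 11 include these genes.

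The ratio of hippocampus to HT22 level also moved with these ratios. Across the 13 genes the rank correlation of the log2 ratio was 0.70 with it, 0.24 with coding length, 0.66 with genomic span and -0.76 with transcript GC content. Over all 10719 measured genes with a GC value these were 0.07, 0.22, 0.14 and 0.17. All are descriptions of genes that share 2 libraries. Of other measured genes whose hippocampus level was 20 to 100 times that in HT22 cells, 61.9% were at least 1.5-fold higher in SUP, with a median of 0.87 over 210 genes. The 7 measured channel genes of that class had a median of 1.12, and all 4 higher genes were among them. Genes of this class could be measured through SUP alone, as all 4 higher genes were. HT22 counts also enter both the class and the log2 ratio. The share, the medians and the correlation of 0.70 therefore support nothing by themselves, and the same limit holds for the comparison that follows. Against the 200 measured genes nearest in the ratio of hippocampus to HT22 level, Scn8a exceeded the median by 0.68, Scn1a by 0.67 and Cacna2d1 by 0.87. Cacna1e fell 0.09 short of its neighbours' median of 1.21, and Scn2a1 lay 0.35 below its own of 0.92. Over all 13 genes the median excess was 0.13.

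**Figure D5:**
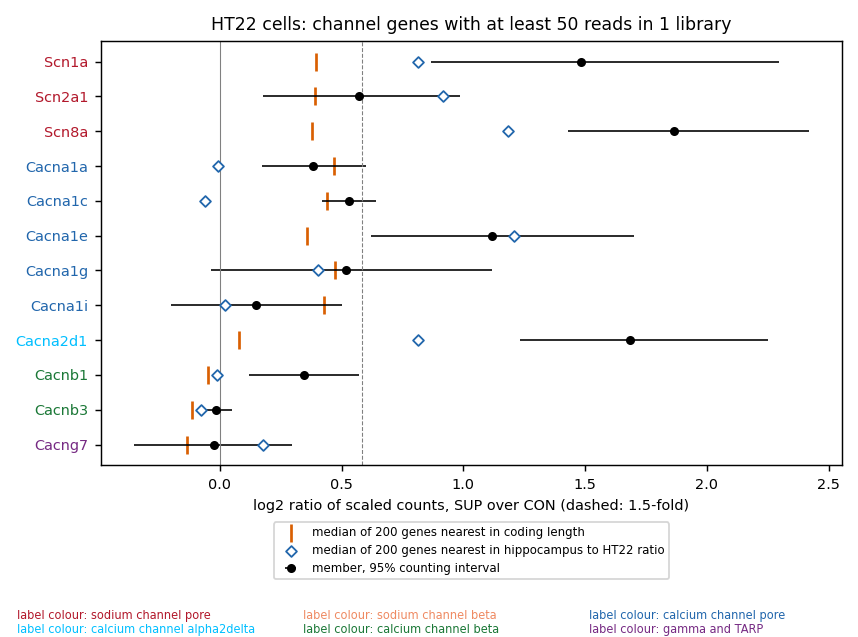
Log2 ratio of HT22 SUP over CON for 12 of the 13 measured genes (points, with 95% counting intervals), the median of the 200 genes nearest in coding length (orange ticks) and of the 200 nearest in the ratio of hippocampus to HT22 level (open diamonds). Scn1a, Scn8a and Cacna2d1 have intervals wholly to the right of both marks, and Cacna1e lies by its diamond.

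Genes under the read minimum were added by summing reads within such classes. Among the 16 channel genes that were 20 to 100 times higher in hippocampus, reads summed to 526 in CON and 827 in SUP, 1.19% and 2.60% of the hippocampus level. Of these, 15 had a higher CPM in SUP and 0 a lower one. The 1575 other genes of that class summed to 1.5% and 2.61%, and 1044 of them were higher and 322 lower. Among the 11 at least 100 times higher, reads summed to 71 and 136, or 0.25% and 0.664%, with 10 higher in SUP and 0 lower, beside 0.325% and 0.771% for the 1133 other genes of that class, of which 804 were higher and 159 lower. Cacng3, with 4 and 37 reads, and Cacna1d, with 10 and 35, were in the first class, and Cacng2, with 0 and 12, was in the second. The 7 genes under 20 times higher stood at 40.0% and 44.3%, a pooled log2 ratio of 0.16 (0.10 to 0.21).

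Neuron markers differed in these cells in the same direction. Of 11 measured, 8 were higher in SUP and 1, Tubb3, lower, with a median of 1.28. The 16 markers summed to 355 CPM in CON and 442 CPM in SUP, against 12900 in hippocampus, and none was at 0 in either library. Of 11 measured sodium channel partners 5 were higher and 0 lower, among them Nrcam at 1.40, Nfasc at 1.13, Cntn1 at 1.07 and Ank3 at 0.88. Of 5 measured calcium channel partners 3 were higher, among them Rims1 at 1.73 and Snap25 at 1.20, and Gem, an inhibitor of the channels, had -0.27. Nrcam, Nfasc, Cntn1 and Rims1 reached 50 reads only in SUP, as did some of the neuron markers counted as higher, so these counts too support nothing by themselves. Of 5 related pores 1 was higher, Unc80, a subunit of the sodium leak channel, at 1.38. The part of depth and of hippocampus-enriched transcripts as a class in the HT22 ratios was not tested.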

How the data were processed

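Poly(A)-selected RNA of 4 mouse libraries was sequenced in paired-end mode after a TruSeq v2 preparation, per the labels' protocols. Trim Galore, TopHat2 with the mm10 build, HTSeq and edgeR were used by the authors, per the series' design text, and CASAVA 1.8 is named in the submitters' processing notes. The count columns are the authors' raw reads per gene, per the file headers. As deposited, RPKM columns divide these by coding length and by all uniquely mapped reads; they served as an alternative scale of level. The log2 fold change column holds the authors' deposited edgeR values; it was printed for comparison only. The deposited p-value and FDR columns are the authors' edgeR values, made without replicates, and were not used.

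Counts were scaled within each pair of libraries by TMM in edgeR 4.0.16 (R 4.3.3), and log2 ratios used a prior count of 2. Intervals are exact conditional Clopper-Pearson intervals at 95%. Each gene was compared with the 200 nearest measured genes in coding length, 100 on each side where possible. GC content came from the transcript with the longest coding sequence in GENCODE M21, for 21096 genes including all 40 channel genes. Medians by length and GC content used 10 and 5 groups. Python 3.11.15 and scipy 1.17.1 did the rest, and the functions were tested on simulated data.

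The channel genes, partner lists, markers and settings were chosen with earlier results of these data known. Partner genes named are those with ratios farthest from 0 in their list, up to 4 per comparison. Alternatives were other scalings (total counts, DESeq2 1.42.0 size factors), prior counts, read minimums and neighbour definitions; those by GC content, genomic span and hippocampus to HT22 ratio were added after the data were seen. No replicate fit exists with 1 library per group, so no test was made. Some genes and sequences are not reported or plotted here.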

Additional observations from a re-analysis of the deposited data

How the results depend on the processing

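No paired analysis was possible because each group holds 1 library. Of 103 alternative values of medians and counts 10 left the tolerance, and those 10 came from the read minimum. For a log2 median the tolerance is the typical counting error of 1 gene (0.07 in hippocampus, 0.32 to 0.45 in HT22 cells), and for a count 1.5 times. It exceeded some of the values it judged, such as the hippocampus median of 0.04 and the HT22 excess of 0.18, so even a change of sign could stay within it. All 315 values of single genes stayed in their counting intervals. A read minimum cannot change a gene's own ratio, so for those settings this outcome was fixed in advance. With 200 reads the hippocampus count of higher genes was 0, and in HT22 cells it was 0 of 4 measured. With 10 reads, HT22 cells had 24 measured genes, 11 of them higher, a median of 0.88 over all, 0.87 over auxiliary genes and 0.84 over length neighbours. With 1 read these were 35, 13, 0.97, 0.97 and 0.79. Genes could pass these minimums through SUP alone, as Cacng2 did at 10 reads with 0 in CON and 12 in SUP. The shares of all genes called at these minimums are not given here, so these values support nothing by themselves. Within the tolerance, the HT22 excess over neighbours went from 0.18 to 0.52 with neighbours by GC content and 0.52 by genomic span, both added after the data were seen. The HT22 median went from 0.52 to 0.25 when genes whose hippocampus level was at least 20 times that in HT22 cells were left out. Total counts turned the hippocampus median of auxiliary genes from 0.0060 to -0.0055 and the ratio of Cacng3 to -0.01. The spread between animals or cultures is unknown.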

Other observations

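Genes of other cell types gave a background for the hippocampus values. Endothelial and mural markers had a median log2 ratio of 0.15 over 10 genes, 9 of them above 0. Oligodendrocyte markers had -0.09 over 12, microglia markers -0.11 over 10 and astrocyte markers -0.06 over 10, with 0 of any of these lists beyond 1.5-fold.

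In hippocampus the authors' deposited table lists log2 fold changes close to those computed here, such as 0.28 for Cacna2d1 and -0.42 for Cacng5. In HT22 cells it lists 0.64 for Scn8a, 0.63 for Cacna2d1 and 0.26 for Cacna1c, where the counts in the same table gave 1.86, 1.68 and 0.53. The sources used here do not say why.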
